A study of Mus musculus with 10 samples.

Results

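The 10 Notch pathway genes described here are the receptors Notch1, Notch2, Notch3 and Notch4, the ligands Jag1, Dll1 and Dll4, and the target genes Hes1, Hey1 and Heyl. They were picked by symbol, and all 10 were found among the 27179 genes of the table and passed the filter on low values. RNA came from the femurs of 10 mice aged 3 or 4 weeks, and ribosomal RNA was depleted before sequencing. The mutant group held 3 female and 2 male-labelled mice heterozygous for the Fgfr1 allele N330I (genotype Fgfr1+/N330I). The WT group held 3 female and 2 male-labelled littermates without that allele. Each mouse gave 1 library, and the values are DESeq2-normalized counts per gene; p-values therefore measure the spread between single mice. The series title describes the mutant as a model of osteoglophonic dysplasia, a skeletal disorder, and names phosphate handling as its subject. The labels name no strain background, no treatment and no age for any single mouse, and they do not say how the allele was made.

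Notch receptors span the cell surface and are activated by Jagged and Delta-like ligands on a neighbouring cell. Cleavage then frees the receptor's intracellular part, which enters the nucleus, binds the DNA-binding protein RBPJ and switches on genes of the Hes and Hey families, whose products are transcriptional repressors. In bone, Notch signalling is known to act in osteoblasts, osteoclasts and the vessel wall, where Dll4 and Notch4 are typical of endothelium and Notch3 and Heyl of the mural cells around it.

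Total normalized counts ran from 24904802 to 39606608 over the libraries, from an estimated 18.1 to 30.6 M reads. The 8 osteoblast markers summed to between 559410 and 768973 in mutant libraries, against 375395 to 1162085 in WT libraries, and none was at 0 in any library. The highest mutant sum was that of male mutant 1, with 491027 on Spp1 alone. Its mean log2 value over these markers was the lowest of the mutants, at 11.3. In female WT 3, 28.8% of the total fell on Rn45s, which encodes precursor ribosomal RNA, against 0.149% to 0.428% elsewhere. Genes with longer exons were under-represented in male WT 1, where the slope of log2 deviations on log10 exon length was -1.62, against -0.48 to 0.45 in the other libraries. The library labelled male mutant 2 went against its label, with Xist (inactive X chromosome) at 7972 and the Y-linked Ddx3y at 4 normalized counts; in the remaining male-labelled libraries Xist lay between 14 and 48, and Ddx3y between 1558 and 1936. It is named by its label here. Fgfr1, the mutated gene, stood at 8856, 12560, 12990, 9132 and 12086 normalized counts in the mutants, against 11326, 8610, 8848, 3861 and 7767 in WT mice, and gene counts do not separate its alleles.

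Promoter windows of 300 bases (250 before to 50 after the RefSeq start, build GRCm38.p6) were at hand for 7 of the 10 genes, namely the receptors and ligands; Hes1, Hey1 and Heyl had none. The windows of Notch2 and of 3 genes typical of vessels are shown because these genes turned out to vary in unlike ways between the mice. Capitals mark the GC box GGGCGG on either strand, the 1 motif of those searched that occurred. Each is written in the direction of its gene.
Notch2, chr3:98013288-98013587, plus strand: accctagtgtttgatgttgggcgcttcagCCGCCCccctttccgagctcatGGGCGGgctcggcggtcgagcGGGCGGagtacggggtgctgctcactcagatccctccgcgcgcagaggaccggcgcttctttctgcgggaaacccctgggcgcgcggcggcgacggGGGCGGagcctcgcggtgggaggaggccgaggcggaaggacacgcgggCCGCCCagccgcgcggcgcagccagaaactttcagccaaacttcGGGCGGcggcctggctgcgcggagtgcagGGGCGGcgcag
Notch3, chr17:32166841-32167140, minus strand: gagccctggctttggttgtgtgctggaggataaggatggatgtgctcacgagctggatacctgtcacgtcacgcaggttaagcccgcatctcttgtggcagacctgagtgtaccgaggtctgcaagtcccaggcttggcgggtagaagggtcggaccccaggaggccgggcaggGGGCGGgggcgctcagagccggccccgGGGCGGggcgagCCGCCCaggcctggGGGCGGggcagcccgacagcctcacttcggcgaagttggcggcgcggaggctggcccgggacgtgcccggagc
Notch4, chr17:34564045-34564344, plus strand: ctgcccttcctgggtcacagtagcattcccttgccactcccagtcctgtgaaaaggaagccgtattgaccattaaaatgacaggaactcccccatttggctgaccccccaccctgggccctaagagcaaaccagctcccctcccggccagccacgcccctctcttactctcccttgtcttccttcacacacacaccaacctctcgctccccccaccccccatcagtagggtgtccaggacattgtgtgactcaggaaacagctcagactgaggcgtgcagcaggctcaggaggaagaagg
Dll4, chr2:119325534-119325833, plus strand: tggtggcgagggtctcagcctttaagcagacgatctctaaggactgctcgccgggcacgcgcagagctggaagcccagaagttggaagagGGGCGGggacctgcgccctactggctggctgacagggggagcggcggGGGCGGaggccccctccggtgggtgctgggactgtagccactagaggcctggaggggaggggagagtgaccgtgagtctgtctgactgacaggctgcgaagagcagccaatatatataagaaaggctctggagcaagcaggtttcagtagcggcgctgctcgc

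The GC box occurred 7 times in the window of Notch2, 5 times in that of Notch1, 4 times in that of Notch3 and 2 times in that of Dll4, and in none of the windows of Notch4, Jag1 and Dll1. Of all 32851 windows of this length, 35.7% held it. The Notch2 window had 41 CpG dinucleotides, that of Notch3 25, that of Dll4 17 and that of Notch4 5. Those of Notch1 and Jag1 had 23 and 22, and those of Dll1 24 and 15, against a median of 7 over all windows. The RBPJ core TGGGAA, found in 25.6% of all windows, and the ETS motif CCGGAA, found in 14.9%, were in none of the 8 windows of the 7 genes (Dll1 has 2). Both strands were searched, and since 1 motif alone occurred, none overlapped another. A missing match says only that these letters are not in these 300 bases.

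Levels of the 10 genes were compared per length, as normalized counts per kb of exon, and the order of the medians over all 10 libraries was as follows. Hes1 stood highest at a median of 539, followed by Notch2 (363), Dll4 (311), Jag1 (282), Notch3 (271), Notch4 (257), Notch1 (162), Hey1 (136), Heyl (99.1) and Dll1 (10.4 normalized counts per kb). Neighbours in this order were often not separated. Notch2 exceeded Dll4 in 5 of 10 libraries, and Jag1 exceeded Notch3 in 5 of 10. Notch4 exceeded Notch1 in 9 of 10, and Heyl exceeded Dll1 in 9 of 10, the exception being female mutant 1, with 3.31 for Heyl and 12.8 for Dll1.

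The question the design poses is whether these genes differ between mutant and WT femurs. No receptor, ligand or target passed the test for genotype. The estimates closest to 0 were those of Hes1, Notch1 and Dll1, and the largest were negative: Heyl, Dll4 and Notch4, vessel genes whose values in the mutants spread from far below all WT mice to the upper WT range. The test was limma on log2(normalized count + 1) with labelled sex as covariate, fitted on 14362 genes, with p-values adjusted over all of them. Of these genes 0 (0%) had an adjusted p under 0.05 and 907 (6.32%) an unadjusted p under 0.05, against 0 of the 10 Notch genes by either rule. The groups overlapped for all 10 genes, where 71 (0.494%) of all genes were higher and 48 (0.334%) lower without overlap. Of the 10 estimates 7 were below 0 (51.8% over all genes), with a median of -0.20 log2, against -0.01 over all genes tested.

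**Figure D1:**
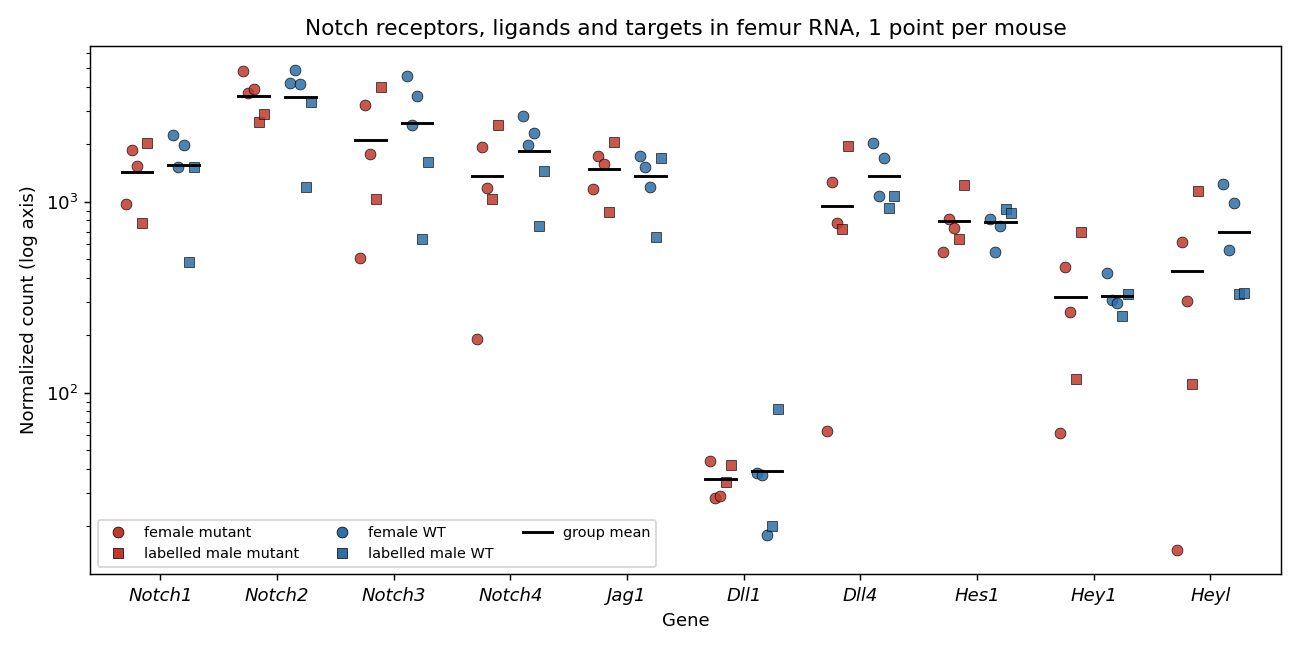
Normalized counts (log axis) of the 10 Notch genes, 1 point per mouse, mutants left and WT right in each pair, circles female and squares labelled male, bars the group means. Mutant and WT points overlap for every gene, and female mutant 1 is the low point for Notch3, Notch4, Dll4, Hey1 and Heyl.

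Among the receptors, Notch2 had the highest median per kb of exon (363) and the smallest SD of log2 values over the 10 mice (0.60). Per kb, Notch3 stood above it in female mutant 2, female WT 1, female WT 3 and the library labelled male mutant 2, and below it in the rest. Notch2 (chromosome 3, 98013538 to 98150367, mm10, 34 exon intervals), a receptor with known roles in osteoclasts and in skeletal remodelling, had 4842, 3720 and 3915 normalized counts in female mutants 1 to 3, 2621 in male mutant 1 and 2890 in the library labelled male mutant 2. The WT values were 4221, 4913 and 4143 in females and 1200 and 3336 in males 1 and 2. The groups overlapped, and male WT 1 lay far below all others. The mutant mean was 3598 ± 883 and the WT mean 3563 ± 1434 normalized counts (SD, n = 5 each), and the difference was 0.13 ± 0.25 log2 (SE), with a 95% interval of -0.43 to 0.68 and a limma adjusted p of 0.896. Without male WT 1 it was -0.15.

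Notch1, the founding mammalian receptor, with roles in vessels and osteoblasts, lies on chromosome 2 (26457902 to 26503822). It had 972, 1874, 1534, 779 and 2035 normalized counts in the mutants, against 2231, 1525, 1994, 483 and 1532 in WT mice, in the same order of labels (females 1 to 3, males 1 and 2). The low values were those of male WT 1 and male mutant 1, and the groups overlapped. The difference was -0.04 ± 0.39 log2, with a 95% interval of -0.90 to 0.83 (limma adjusted p = 0.980).

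Notch3, the receptor of mural cells, lies on chromosome 17 (32120893 to 32166852). Its values were 506, 3224, 1778, 1039 and 3990 normalized counts in the mutants, against 4564, 2528, 3573, 641 and 1612 in WT mice. Both groups covered nearly the whole range. The difference was -0.36 ± 0.64 log2, with an interval of -1.80 to 1.07 (limma adjusted p = 0.888), and 0.17 without female mutant 1.

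Notch4, the endothelial receptor, also lies on chromosome 17 (34564295 to 34588543). It had 191, 1944, 1184, 1038 and 2522 normalized counts in the mutants, against 2833, 1977, 2285, 746 and 1453 in WT mice. Female mutant 1 was the lowest of the 10. The difference was -0.72 ± 0.66 log2, with an interval of -2.20 to 0.76 (limma adjusted p = 0.816), and it was -0.05 without female mutant 1.

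Of the ligands, Jag1 (chromosome 2, 137081451 to 137116520), a Jagged ligand made by vessel wall and osteoblast-lineage cells, had 1173, 1741, 1572, 881 and 2065 normalized counts in the mutants. The WT values were 1741, 1521, 1200, 658 and 1694. Male-labelled libraries held both the highest and the lowest value, and the groups overlapped. The difference was 0.14 ± 0.30 log2, with an interval of -0.52 to 0.81 (limma adjusted p = 0.899), and -0.10 without male WT 1.

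Dll4 (chromosome 2, 119325784 to 119335666), the Delta-like ligand of arteries and sprouting vessels, varied 32.3-fold between the lowest and the highest of the 10 mice. Its values were 63, 1276, 772, 720 and 1956 normalized counts in the mutants, against 2036, 1072, 1695, 925 and 1076 in WT mice. Mutants 1 and 3 among the females and male mutant 1 lay below all WT mice, and the other 2 mutants within the WT range. The mutant mean was 957 ± 705 and the WT mean 1361 ± 480 normalized counts (SD, n = 5 each). The difference was -1.07 ± 0.79 log2, with an interval of -2.84 to 0.69 (limma adjusted p = 0.798). Without female mutant 1 it was -0.24.

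Dll1 (chromosome 17, 15367354 to 15375823), a Delta-like ligand, was the least abundant, at 44, 28, 29, 34 and 42 normalized counts in the mutants, against 38, 37, 18, 20 and 82 in WT mice. The WT mice enclosed the mutants. The value of 18 in female WT 3 rests on an estimated 8 reads, with an exact 95% Poisson interval of 7.58 to 34.6 normalized counts that covers counting error only. The difference was 0.05 ± 0.39 log2, with an interval of -0.81 to 0.92 (limma adjusted p = 0.973), and -0.23 without male WT 1.

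The targets differed most in how much they varied. Hes1 (chromosome 16, 30065357 to 30067796), a repressor that Notch induces directly in many cell types, had 550, 818, 729, 640 and 1224 normalized counts in the mutants, against 817, 548, 746, 915 and 879 in WT mice. It varied 2.23-fold over the 10 mice, the least of the 10 genes. Its difference was -0.01 ± 0.19 log2, with an interval of -0.44 to 0.42 (limma adjusted p = 0.986).

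Hey1 (chromosome 3, 8663359 to 8667038), a repressor of arterial endothelium that osteoblast-lineage cells also make, had 62, 456, 266, 118 and 694 normalized counts in the mutants, against 425, 305, 294, 253 and 331 in WT mice. The mutants spread on both sides of the narrow WT range: the SD was 259 in mutants and 64.3 in WT mice around means of 319 and 322 (n = 5 each). The difference was -0.47 ± 0.59 log2, with an interval of -1.78 to 0.84 (limma adjusted p = 0.848), and 0.02 without female mutant 1.

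Heyl (chromosome 4, 123233556 to 123249870), the related repressor of vascular smooth muscle and pericytes, varied 83.2-fold, the most of the 10 genes. It had 15, 619, 304, 111 and 1137 normalized counts in the mutants, against 1248, 563, 987, 328 and 335 in WT mice. The value of 15 in female mutant 1 rests on an estimated 17 reads (exact 95% Poisson interval 8.61 to 23.7 normalized counts), so its low place is beyond counting error. The mutant mean was 437 ± 454 and the WT mean 692 ± 410 normalized counts (SD, n = 5 each). The difference was -1.53 ± 1.04 log2, with an interval of -3.85 to 0.80 (limma adjusted p = 0.795), and -0.51 without female mutant 1.

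**Figure D2:**
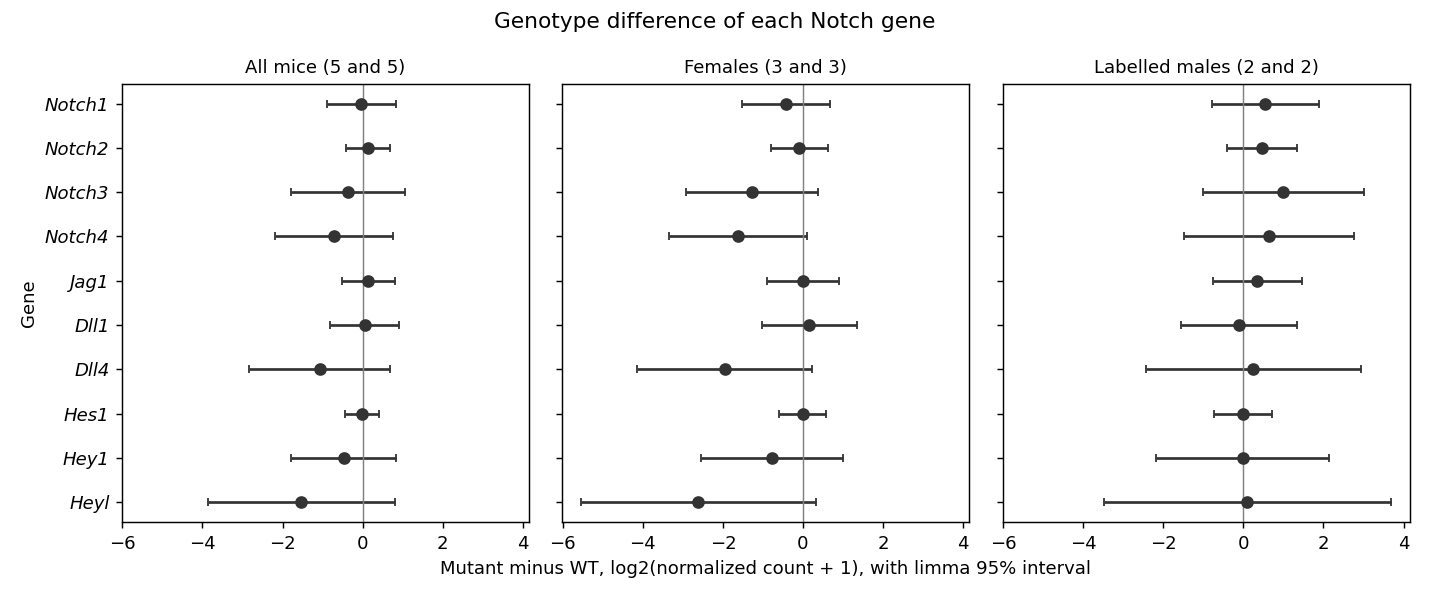
Mutant minus WT difference of each Notch gene on the log2(normalized count + 1) scale, points with limma 95% intervals, in all mice, females and labelled males. Every interval includes 0. The estimates for all 4 receptors, Dll4 and Heyl are negative in females and positive in labelled males.

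The female and male-labelled libraries also bear different kinds of library names, so labelled sex and library set cannot be told apart. The library labelled male mutant 2, with Xist at 7972 and Ddx3y at 4, was kept among the labelled males in all comparisons by sex. The contrasts in labelled males and between the labels are therefore not clean contrasts of sex. In females, 8 of the 10 estimates were below 0, and the median was -0.60 log2, against a median of -0.00 and 50.4% of estimates below 0 over all genes. None of the 10 passed, where 2 (0.0139%) of all genes did, and 0 of the 10 had an unadjusted p under 0.05, against 4.44% of all genes. Notch4 was the 1 member whose female groups did not overlap, at 191, 1944 and 1184 normalized counts in female mutants and 2833, 1977 and 2285 in female WT mice, where 7.16% of all genes were lower without overlap. The female differences were -1.62 ± 0.76 log2 for Notch4, -1.96 ± 0.96 for Dll4, -2.62 ± 1.29 for Heyl and -1.28 ± 0.72 for Notch3, each with a limma adjusted p of 1. Without female mutant 1 they were -0.62, -0.64, -1.03 and -0.53.

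In labelled males, 7 of the 10 estimates were above 0 (7175 of 14362 over all genes), with a median of 0.30 log2, and none passed, where 0 (0%) of all genes did and 8.31% had an unadjusted p under 0.05, against 0 of the 10. All 4 receptors had estimates above 0 here and below 0 in females. Differences were 1.00 ± 0.89 for Notch3, 0.64 ± 0.93 for Notch4, 0.25 ± 1.18 for Dll4 and 0.10 ± 1.58 for Heyl. With 2 mice a group, single libraries set these values. Without male mutant 1 they were 1.97, 1.28, 0.97 and 1.78, and without the library labelled male mutant 2 they were 0.031, -0.0044, -0.47 and -1.57. Notch2 differed by 0.46 ± 0.39 (limma adjusted p = 0.620), and without male WT 2, which leaves male WT 1 as the only male WT library, by 1.20 (adjusted p = 0.00498), together with 4363 of all genes. Without male WT 1 it was -0.28.

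The difference between the effects, labelled males minus females, was itself tested. It was 2.28 ± 1.14 log2 for Notch3, 2.25 ± 1.21 for Notch4, 2.21 ± 1.52 for Dll4, 2.72 ± 2.04 for Heyl and 0.55 ± 0.50 for Notch2, each with a limma adjusted p of 0.801. None of the 10 passed, nor did any of all genes tested (0%), and 3.92% of all genes had an unadjusted p under 0.05, against 0 of the 10. Without female mutant 1 the values were 1.53 for Notch3, 1.26 for Notch4, 0.89 for Dll4 and 1.13 for Heyl, and without the library labelled male mutant 2 they were 1.31, 1.61, 1.49 and 1.05. Without male mutant 1 the Heyl value was 4.39. Without male WT 2 the Notch2 value was 1.29 (adjusted p = 0.0131), together with 2674 of all genes.

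Between labelled males and females, adjusted for genotype, Notch2 was the 1 Notch gene that passed. It was lower in the male-labelled libraries, at 2621, 2890, 1200 and 3336 normalized counts, against 3720 to 4913 in the 6 female libraries, without overlap between the labels. The 2890 belongs to the library labelled male mutant 2, whose Xist (7972) and Ddx3y (4) went against its label. It lay below male WT 2 (3336), so grouping by these 2 genes would give overlap. By label, the difference was -0.86 ± 0.25 log2, with an interval of -1.43 to -0.30 (limma adjusted p = 0.0414). Of all genes, 2886 (20.1%) passed in either direction, 1528 (10.6%) as lower, and 1579 of 14362 were lower without overlap, so 1 of 10 is near the background. Hes1 was estimated 0.36 ± 0.20 higher in the male-labelled libraries and did not pass (limma adjusted p = 0.195); without the library labelled male mutant 2 the estimate was 0.19, and without male mutant 1 it was 0.55. Notch2 has the longest exon sequence of the 10 genes, 10506 bases, and the slope of log2 deviation on exon length ran from -1.62 to 0.14 in the male-labelled libraries, against 0.17 to 0.45 in the female ones. With this slope removed from each library, a setting chosen after seeing the data, the Notch2 difference was -0.38 (adjusted p = 0.0645) and that of Hes1 0.14. The Notch2 call was also lost without any 1 of the female libraries or without male mutant 1 (differences of -0.92 to -0.80), and without male WT 1 the difference was -0.52 (adjusted p = 0.0117).

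Several Notch genes varied from mouse to mouse together with vessel markers, and the part of these markers in the genotype estimates was not tested as a cause. The list of 16 endothelial markers had sums of 4028 to 31438 normalized counts across mutant libraries, against 18027 to 36446 across WT libraries; for the 10 mural markers the sums were 13775 to 35657 across mutant and 21279 to 38961 across WT libraries. Female mutant 1 was lowest in both lists, and no marker of either list was at 0 in any library. Of the endothelial markers 15 of 16 had estimates below 0 for genotype, with a median of -1.01 log2, and of the mural markers 7 of 10, with a median of -0.71; none of either list passed. The 3 markers of smallest p in each list were as follows. Kdr, a receptor for vascular endothelial growth factor, differed by -0.99 ± 0.40, Egfl7 by -1.30 ± 0.58 and Emcn by -1.45 ± 0.65, and the mural genes Rgs5, Myh11 and Acta2 by -1.71 ± 0.88, -1.43 ± 0.76 and -1.17 ± 0.63. The markers with estimates above 0 were Vwf (0.42 ± 0.46) among the endothelial ones and Des (0.98 ± 0.63), Pdgfrb (0.21 ± 0.30) and Cspg4 (0.17 ± 0.49) among the mural ones. In bulk RNA, fewer cells of a type and less RNA per cell cannot be told apart.

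Across the 10 mice, Dll4 and Heyl followed the endothelial list most closely, and Notch2 and Dll1 did not follow it. The relation of log2 values to the mean log2 value of the endothelial markers was computed for each gene, and likewise for the mural list, 20 relations in all. How many of all genes tested follow either list as closely was not computed, so the p-values below do not set the Notch genes apart from other genes. The permutations ran over all 10 mice without regard to genotype or labelled sex, so differences between these groups also enter the p-values. For Dll4, Pearson's r was 0.994 and Spearman's rho 0.988 (permutation p = 2e-05, the smallest the 100000 resamples can give, and 4e-05; adjusted p = 0.0002 and 0.000267). For Heyl, r was 0.978 and rho 1 (permutation p = 2e-05 for both; adjusted p = 0.0002 and 0.000267). For Notch4, r was 0.960 and rho 0.952 (permutation p = 0.00052 and 0.00016; adjusted p = 0.00149 and 0.000457). Without female mutant 1 and female WT 1, the libraries farthest from the median, r was 0.977 for Dll4, 0.940 for Heyl and 0.805 for Notch4. Within the 6 females, r was 0.996, 0.999 and 0.997; labelled males were too few for a value.

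Hey1 and Notch3 followed less tightly. For Hey1, r was 0.891 and rho 0.855 (permutation p = 0.00188 and 0.00284; adjusted p = 0.00376 and 0.00516), and for Notch3 r was 0.812 and rho 0.939 (permutation p = 0.00148 and 0.00024; adjusted p = 0.00329 and 0.0006). Without the libraries farthest from the median, r was 0.764 for Hey1 and 0.736 for Notch3, and within females 0.949 and 0.993. Notch1 had r = 0.498 and rho = 0.842 (permutation p = 0.235 and 0.00424; adjusted p = 0.335 and 0.00707), and r was 0.600 without those 2 libraries and 0.959 within females. Jag1 had r = 0.340 and rho = 0.705 (permutation p = 0.355 and 0.0271; adjusted p = 0.444 and 0.0388). Hes1 had r = 0.584 and rho = 0.467 (adjusted permutation p = 0.0976 and 0.235), Notch2 r = -0.140 and rho = 0.127 (0.801 and 0.815), and Dll1 r = -0.182 and rho = -0.0788 (0.578 and 0.879). With the mural list, r was 0.991 for Dll4, 0.981 for Heyl, 0.963 for Notch4, 0.896 for Hey1 and 0.838 for Notch3, and -0.118 for Notch2.

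**Figure D3:**
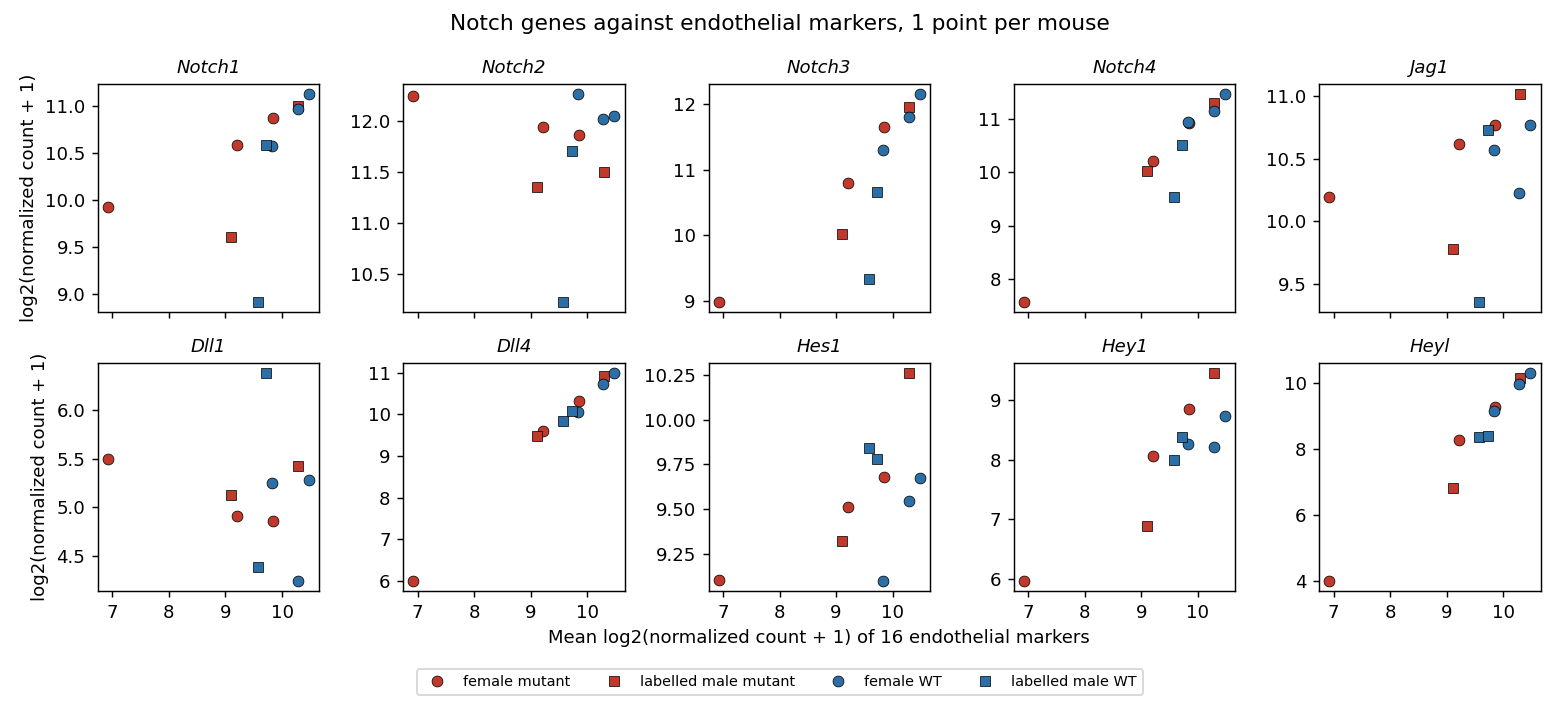
Log2(normalized count + 1) of each Notch gene against the mean of 16 endothelial markers on the same scale, 1 point per mouse, mutants red and WT blue, circles female and squares labelled male. Points for Dll4, Heyl and Notch4 run upward with the markers, with female mutant 1 at the low end (6.92), while those for Notch2 do not.

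Set against the endothelial mean within each library, the spread of the vessel genes shrank. This largely follows from the relations given above and adds no separate evidence. The SD over the 10 mice was 1.44 log2 for Dll4 and 0.44 for its difference from the endothelial mean; for Notch4 these values were 1.15 and 0.33, for Heyl 1.89 and 0.92, and for Hey1 0.99 and 0.47. For Notch3 they were 1.12 and 0.66. For Notch2 the SD was 0.60 log2 for the gene and 1.25 for the difference, and for Hes1 0.35 and 0.86. The spread also widened for Notch1 (0.71 and 0.91), Jag1 (0.51 and 0.97) and Dll1 (0.60 and 1.27). On this difference, female mutant 1 was still the lowest library for Dll4, at -0.92, against 0.24 to 0.51 in WT libraries. The same held for Heyl, at -2.92, against -1.33 to -0.19 in WT libraries. For Notch4 (0.66) and Hey1 (-0.94) female mutant 1 was not the lowest. With the endothelial mean as a further covariate, a setting chosen after seeing the data, the genotype difference was 0.36 ± 0.18 for Notch4, 0.23 ± 0.11 for Dll4 and 0.18 ± 0.22 for Heyl, and none of the 10 genes passed (limma adjusted p = 0.602, 0.581 and 0.756 for these 3).

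The genes most like each member over the 10 libraries were named by Pearson's r of log2 values among all 14362 genes. Pecam1, the endothelial adhesion molecule of the marker list, was closest to Dll4 (r = 0.995), Vash1 to Notch4 (0.990), and Col4a2, a chain of vessel and other basement membranes, to Notch3 (0.992). Gucy1a3, a subunit of the soluble guanylate cyclase, was closest to Heyl (0.990), and its partner subunit gene Gucy1b3 was second for Hey1 (0.965), after Prrg3 (0.968). Zfc3h1 (0.992) and Xpo6 (0.992) were closest to Notch2, and like it had their lowest value in male WT 1, at 569 and 1206 normalized counts. Gab1 (0.984) and Tjp1 (0.984) were closest to Notch1, Nr3c2 (0.972) to Jag1, Ss18 (0.955) to Dll1 and Rasd1 (0.958) to Hes1. These values are descriptions, since all genes of a library share its size factor and length slope.

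The make-up of each class was read per kb of exon within each library, which does not depend on the size factors. Among the receptors, Notch1 took a nearly fixed share, 13.3% to 17.2% in mutants, against 12.9% to 17.9% in WT libraries. Notch2 took 70.3% in female mutant 1 and 20.0% to 40.3% in the other mutants, against 24.5% to 37.5% in WT mice. Notch4 took 4.41% in female mutant 1 and 19.1% to 27.8% in the other mutants, against 24.0% to 31.5% in WT mice. The receptor mix of female mutant 1 lay outside the range of the other 9 libraries for Notch2, Notch3 (9.71%) and Notch4.

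Among the ligands, Dll4 held 43.6% ± 21.1 of the class in mutants, against 60.3% ± 9.47 in WT libraries, and Jag1 54.0% ± 19.6 in mutants, against 37.9% ± 8.53 in WT libraries (SD, n = 5 each). Female mutant 1 had 87.3% Jag1 and 7.46% Dll4. Dll1 never exceeded 5.25%. Among the targets, Hes1 held 74.4% ± 14.1 in mutants and 64.6% ± 9.82 in WT mice, and Heyl 0.806% to 17.8% in mutants, against 8.85% to 26.7% in WT libraries. The groups overlapped in every one of these shares, and they were not tested.

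**Figure D4:**
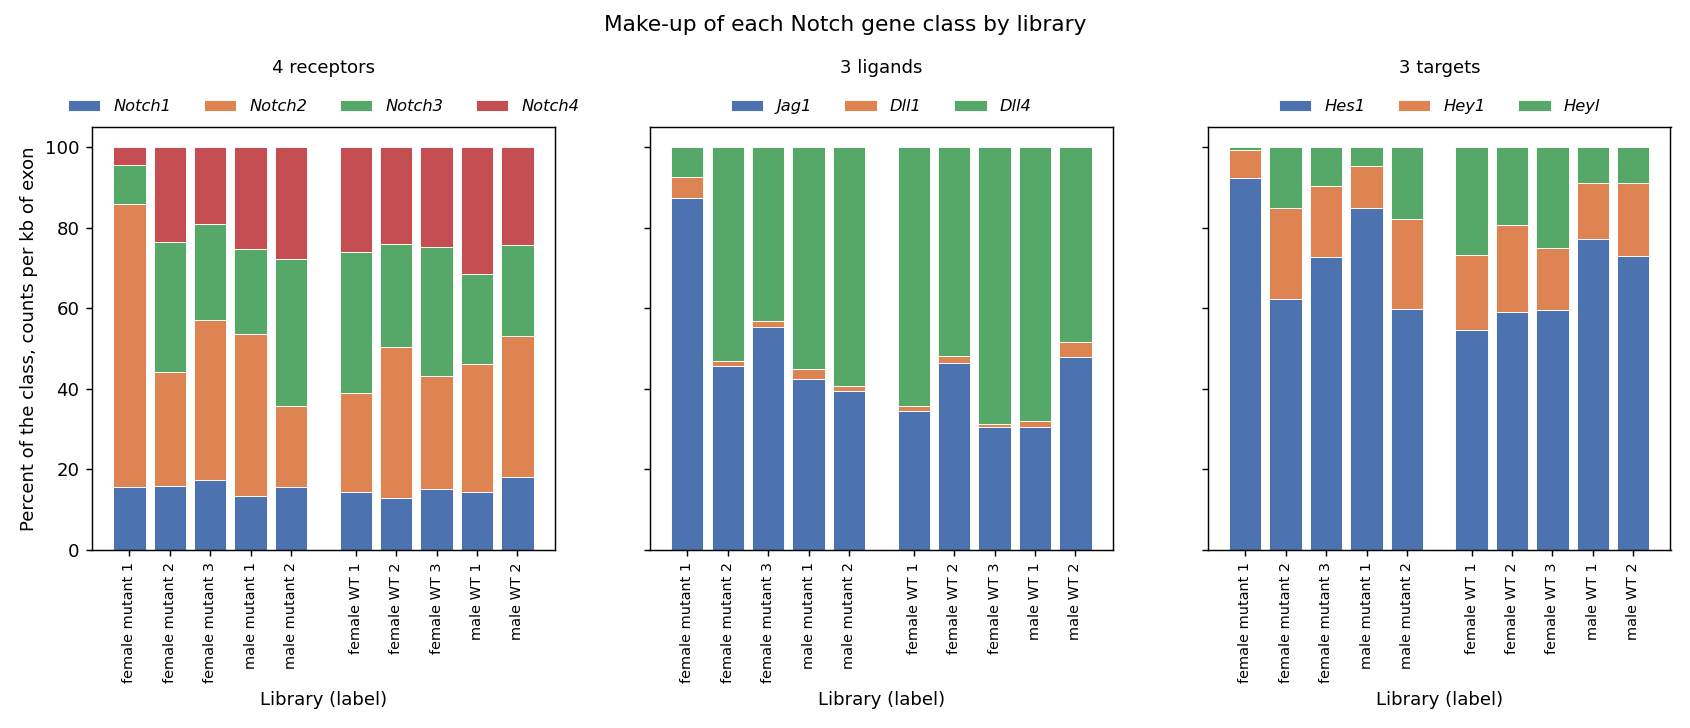
Share of each gene in its class (4 receptors, 3 ligands, 3 targets) per library, from normalized counts per kb of exon, stacked to 100%, the 5 mutant libraries left and the 5 WT libraries right. Female mutant 1 stands apart, with 70.3% Notch2, 87.3% Jag1 and 92.3% Hes1.

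The other 43 pathway genes listed were read for the same comparison. Of these, 38 passed the filter, 0 passed the test in either direction, 19 estimates lay above and 19 below 0, and the median was 0.01 log2. At an unadjusted p under 0.05, 1 was higher and 2 were lower, against 3.69% higher and 2.62% lower among all genes. Hes5, a target of neural tissue, had 0 or 1 normalized count in every library, Dll3 0 to 3 and Hes7 0 to 3, so these were not detectable or barely detectable at this depth: a count of 0 allows up to 2.54 to 6.58 normalized counts (3 reads, counting error only). Among ligands and ligand-like genes, Dlk1, a membrane protein of immature mesenchymal cells that lacks the receptor-binding part of the Delta ligands, ranged over 64 to 489 (mutants) and 31 to 103 (WT mice) normalized counts (1.38 ± 0.60 log2, limma adjusted p = 0.783), and Jag2 differed by -0.37 ± 0.35. Of the other targets, Nrarp, a feedback inhibitor of Notch, had 7 to 346 in mutants and 172 to 531 in WT mice (-1.28 ± 0.95, limma adjusted p = 0.800), and Hey2 5 to 20 in mutants and 15 to 39 in WT mice (-0.89 ± 0.42, limma adjusted p = 0.788).

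In the machinery that cuts the receptors, Psen2, a catalytic presenilin of gamma-secretase, had a mutant mean of 853 ± 134 and a WT mean of 1235 ± 240 normalized counts (SD, n = 5 each; -0.53 ± 0.15 log2, limma adjusted p = 0.594). It did not pass, and Aph1c, a further subunit gene, differed by -0.39 ± 0.24. Of the genes that add sugars to the receptors, the fringe gene Mfng had 115 to 376 in mutants and 314 to 538 in WT mice (-0.73 ± 0.29, limma adjusted p = 0.750), with 0.12 ± 0.10 for Pofut1 and 0.09 ± 0.13 for Rfng. In the nucleus, Rbpj differed by 0.27 ± 0.18, Maml3, a coactivator gene, by 0.45 ± 0.32 and Snw1 by -0.13 ± 0.13. Of the genes of ubiquitination and trafficking, Dtx2, Dtx3 and Numbl differed by 0.19 ± 0.11, 0.17 ± 0.10 and 0.20 ± 0.15. None of these passed.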

How the data were processed

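The deposited table gives 1 score per gene and library, which the authors obtained by scaling gene counts with DESeq2 and which holds whole numbers, per the file headers. The submitters' processing notes list STAR 2.5.2b, DESeq2 1.14.1 and mm10 without roles; counter and strand setting are unknown here. Because values were rounded after scaling, no count test was run. What 1 read is worth (0.845 to 2.19 normalized counts) was estimated from whole numbers skipped or doubled up to 150.

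The filter asked for at least 10 normalized counts in at least 5 libraries, and the genes left were tested with limma 3.58.1 (R 4.3.3; trend, robust) on log2(value + 1), which understates the changes of low genes, with Benjamini-Hochberg adjustment and calls under 0.05. The fit was tested on simulated data. Within-sex effects and their difference came from group means in all 10 libraries. Exon length was the union of the table's intervals; 0 columns lacked a sample. Replicates were no copies (at most 1.12% equal values). Whether the mice came from separate litters is not stated. The members and gene lists were chosen with earlier results of these data known. Named genes were the members, Fgfr1, up to 3 genes per pathway, endothelial and mural list by smallest p, and the 2 genes most like each member. Of the pathway genes so named, 1 is not reported here, and the text prints the second most like gene for some members only. Other marker lists (osteoblast, osteocyte, osteoclast, chondrocyte, macrophage, muscle, blood, nerve) served to check the tissue. Alternatives covered pseudocount, filter, scaling, covariates, the replicate block and left-out libraries; 3 were added after seeing the data. Relations used scipy 1.17.1.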

Additional observations from a re-analysis of the deposited data

How the results depend on the processing

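No Notch gene passed for genotype over all mice under any alternative, and the count over all genes stayed at 0 except for 11 with array weights. Each of the 10 estimates changed sign under at least 1 alternative, the 3 largest (Heyl, Dll4 and Notch4) under 1 alone, the endothelial covariate. With the endothelial mean as covariate (chosen after seeing the data) the differences were 0.41 for Notch1, 0.63 for Notch3, 0.36 for Notch4, 0.23 for Dll4, 0.19 for Hes1, 0.40 for Hey1, 0.18 for Heyl and -0.082 for Dll1. With array weights they were -0.18 for Notch2, -0.27 for Dll1 and 0.15 for Hes1, and with quantile normalization -0.012 for Dll1. Without female WT 3 and male WT 1 they were -0.19 for Notch2, -0.21 for Jag1, -0.51 for Dll1 and 0.032 for Hes1; leaving out the library labelled male mutant 2 as well gave -0.20 for Notch2, -0.38 for Jag1 and -0.49 for Dll1. With 2 further settings chosen after seeing the data, the exon length slope removed gave -0.017 for Notch2, 0.053 for Hes1 and, in labelled males, -0.043 for Heyl, and leaving out female mutant 1 and male WT 1 gave -0.23 for Notch2, -0.0079 for Jag1, -0.42 for Dll1 and 0.10 for Hes1. The cause of these changes was not tested.

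Leaving out 1 library at a time, genotype differences over all mice ran from -0.38 to 0.16 for Notch1, -0.15 to 0.30 for Notch2, -0.87 to 0.17 for Notch3, -0.10 to 0.32 for Jag1, -0.23 to 0.38 for Dll1, -0.16 to 0.13 for Hes1 and -0.93 to 0.021 for Hey1. Those of Notch4 (-1.12 to -0.05), Dll4 (-1.50 to -0.24) and Heyl (-2.29 to -0.51) kept their sign and were nearest 0 without female mutant 1. In labelled males the ranges were -0.28 to 1.20 for Notch2, -0.0044 to 1.28 for Notch4, -0.47 to 0.97 for Dll4 and -1.57 to 1.78 for Heyl, and the difference between the effects ran from -0.18 to 1.29 for Notch2. Counts of genes passing ran from 0 to 1 in females (2 with all libraries, 0 in the 6 female libraries alone, 1 with the length slope removed), 0 to 4363 in labelled males, 0 to 2674 for the difference between the effects and 964 (without female WT 2) to 4034 between labelled males and females; the highest of the last 3 came without male WT 2.

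The replicate block left 0 genes for genotype over all mice and 0 for the difference between the effects; no Notch gene passed in either comparison with or without it, and the block was not run between labelled males and females. Deviations of same-numbered samples had correlations of -0.319, -0.292 and 0.00119 in females and 0.221 for either number in labelled males. With so few libraries in each group, these values cannot decide whether the numbers pair the mice. Depth limits Dll1 most, at an estimated 8 to 94 reads.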

Other observations

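The other marker lists gave these median mutant minus WT differences over all mice on the log2 scale, beside -0.01 over all genes tested, and no marker of any list passed limma's test. The median was 1.27 for 7 osteoclast markers (6 above 0), 2.25 for 4 osteocyte markers (4 above 0), 0.16 for 8 osteoblast markers (5 above 0) and 1.46 for 6 skeletal muscle markers (6 above 0). It was -0.06 for 7 chondrocyte markers, -0.10 for 4 macrophage markers, -0.16 for 3 nerve markers and -1.33 for the 2 blood markers that passed the filter. All 9 blood markers listed summed to 20 to 59 normalized counts in mutant and 53 to 129 in WT libraries, so little blood-cell RNA was seen. The 5 macrophage markers listed summed to 45832 to 74163 in mutant and 51090 to 77823 in WT libraries. At an unadjusted limma p under 0.05, 6 osteoclast, 2 osteocyte, 2 muscle, 1 osteoblast and 1 macrophage marker were higher in mutants. Lower were 1 chondrocyte and 1 blood marker, against 3.69% of all genes higher and 2.62% lower by this rule. Summed osteoclast markers ran from 60002 to 332437 normalized counts in mutants and from 30868 to 98488 in WT libraries. Male mutant 1 alone set the top of the mutant range, and the next highest mutant, the library labelled male mutant 2, stood at 99306. Their part in the values of the Notch genes was not tested.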
